A study of Sus scrofa with 20 samples.

Results

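The genes described here are 10 members of the TGF-beta family pathway measured in the uterus of the sow: the ligands TGFB1, TGFB2 and TGFB3, the receptors TGFBR1 and TGFBR2, the activin subunits INHBA and INHBB, the activin inhibitor FST, and the ligands BMP2 and BMP4. They were taken by name from 30345 gene rows, with the row of the higher mean where a name stood on more than 1 row, and all 10 were among the 17745 genes that passed the filter on low counts. Messenger RNA was sequenced from the uterus of 20 sows, 1 library a sow, all Large White by Landrace crosses slaughtered 6 days after estrus began. FR1 sows were inseminated with the sperm-rich fraction of the ejaculate alone, FR2 sows with the rich and intermediate fractions, and FR3 sows with the rich, intermediate and poor fractions, in 5 sows each. The 5 CONTROL sows were not inseminated. Semen came from 3 Pietrain boars, and the labels tie no sow to a boar and give neither the age of the sows nor which of them carried embryos. The inseminated sows differ from the CONTROL sows in both exposure to semen and possible early pregnancy, and these cannot be told apart here.

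Ligands of the TGF-beta family are secreted dimers that bring type II and type I receptor kinases together on the cell surface. TGF-betas and activins then act mainly through SMAD2 and SMAD3, and BMPs through SMAD1, SMAD5 and SMAD9. TGF-betas leave the cell in a latent form that integrins and other proteins activate, whereas activins and BMPs are held in check by secreted inhibitors such as follistatin and noggin. In the uterus the family is known for roles in stromal differentiation, embryo attachment and immune tolerance, and seminal plasma itself carries TGF-beta protein, which a transcript count in the uterus does not measure.

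Library totals ran between 33 M and 62.9 M estimated counts (1 M is 1000000), and each group's range overlapped the others. Levels below are CPM, estimated counts per 1000000, scaled with TMM factors, a correction for composition between libraries. They hold no correction for transcript length, so levels are compared between libraries of 1 gene and not between genes. A gene was called where the edgeR quasi-likelihood test gave a Benjamini-Hochberg adjusted p below 0.05 over all genes tested. Changes are log2 fold changes with their standard errors. The uterus samples are mixtures, and in them fewer cells of a type and less RNA per cell cannot be told apart. Defining markers of epithelium, stromal fibroblasts, smooth muscle and endothelium were above 0 in every library, while the B cell marker MS4A1 was at 0 in some libraries. Of 15 epithelium markers 8 were called lower (53.3%, beside 8.2% of all genes tested) and 0 higher in the inseminated sows, and 3 had a change above 0. Their summed level was 1768 to 6732 CPM (median 3597) in inseminated libraries and 4671 to 7631 CPM (median 5402) in CONTROL libraries. Of 11 stromal fibroblast markers 3 were called higher (27.3%, beside 2.87% of all genes tested) and 0 lower, and 1 had a change below 0. Their summed level was 4794 to 18201 CPM (median 12287) in inseminated libraries and 1779.9 to 8957 CPM (median 6815) in CONTROL libraries.

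When the 3 inseminated groups were averaged and set against CONTROL, TGFB2 and TGFB3 were the 2 members called, both higher. That is 20.0% of the members, where 11.1% of all genes tested were called, 2.87% higher and 8.2% lower. TGFB3 averaged 20.7 ± 11.9 CPM in inseminated sows and 5.63 ± 3.77 CPM in CONTROL sows (SD, n = 15 and 5). TGFB2 averaged 69.0 ± 33.4 CPM in inseminated sows and 33.3 ± 6.04 CPM in CONTROL sows. The other 8 members were not called. An exact 2-sided rank-sum test on the same libraries, which called 1.88% of all genes tested, called 0 members, with an adjusted p of 0.0601 for TGFB3 and 0.155 for TGFB2. DESeq2, which called 16.3% of all genes tested, called both, and limma-voom, which called 7.37%, called TGFB3 alone. With limma-voom and a spread per group, which called 1.45%, neither was called (adjusted p = 0.182 for TGFB3 and 0.439 for TGFB2). No member separated the 15 inseminated from the 5 CONTROL libraries completely, in either direction, a pattern that 0.265% of all genes tested showed with higher and 0.203% with lower levels.

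**Figure D1:**
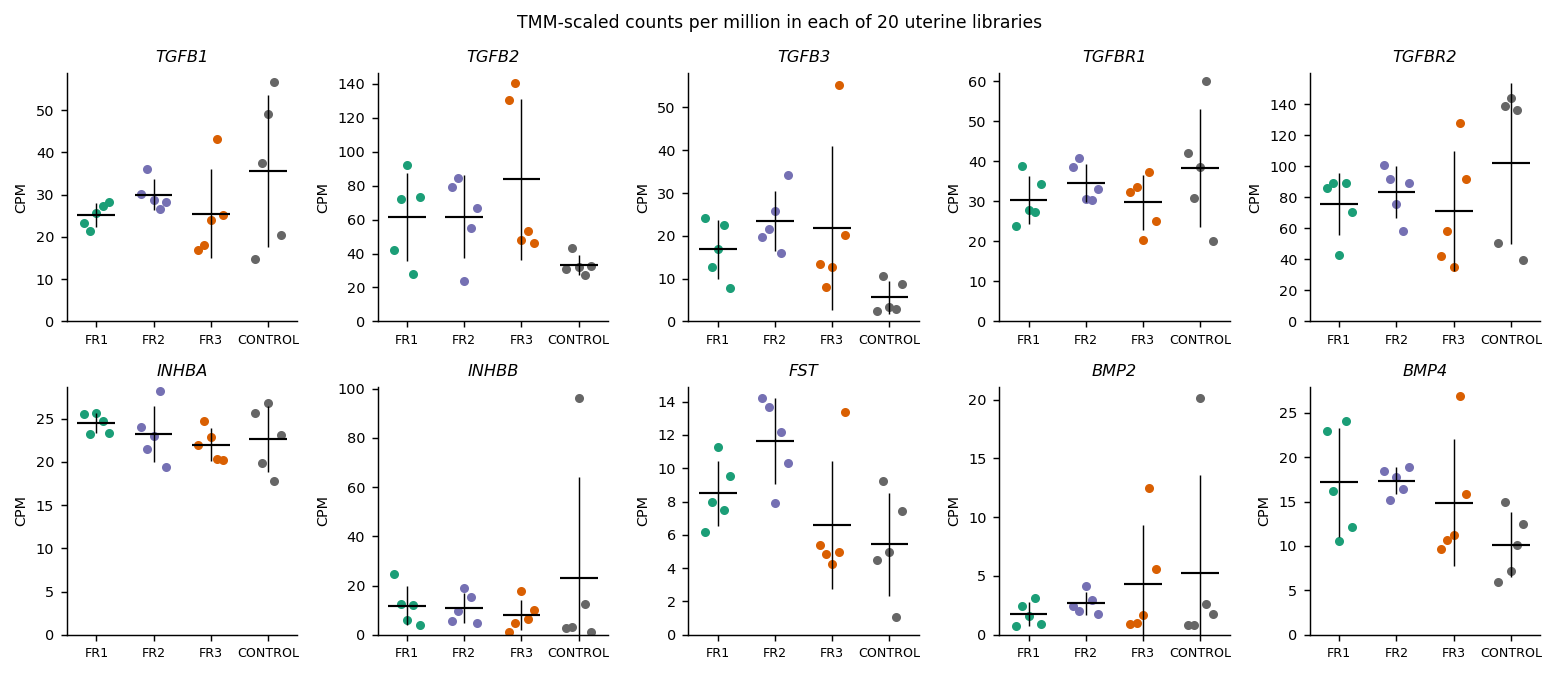
TMM-scaled CPM of the 10 members in each library (points) of the FR1, FR2, FR3 and CONTROL sows, with the mean (horizontal line) and SD (vertical line, drawn no lower than 0) of each group of 5. TGFB3 lay above all 5 CONTROL libraries in 13 of 15 inseminated libraries, while 1 CONTROL library, at 96.1 CPM, stood far above the rest for INHBB and the same library, at 20.1 CPM, for BMP2.

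TGFB3 encodes the TGF-beta isoform known in development for closure of the palate. It stood at 24.2, 12.8, 16.9, 22.5 and 7.7 CPM in FR1 libraries 1 to 5, at 19.8, 21.7, 25.7, 15.9 and 34.2 CPM in FR2, at 13.4, 8.04, 12.7, 55.3 and 20.2 CPM in FR3, and at 2.45, 10.6, 3.32, 3 and 8.73 CPM in CONTROL. All 5 FR2 libraries exceeded every CONTROL library, and in the other groups only FR1_5 and FR3_2 fell within the CONTROL range. The fitted log2 change over the 3 inseminated groups was 1.87 ± 0.45, a 3.65-fold higher level (edgeR adjusted p = 0.0116). Against the same CONTROL libraries, it was 2.06 ± 0.51 in FR2 (adjusted p = 0.0251) and 1.96 ± 0.51 in FR3 (adjusted p = 0.0363), both called, and 1.58 ± 0.50 in FR1 (adjusted p = 0.0901), not called. With only the groups compared in the fit, TGFB3 was called in neither FR2 nor FR3, where 1 and 0 of all genes tested were called. FR3_4 stood far above the other FR3 libraries, and without it the FR3 change was 1.25 and not called (adjusted p = 0.1). TGFB3 was the 1 member called in FR2, where 5.55% of all genes tested were called, 1.57% higher and 3.98% lower. It was also the 1 called in FR3, where 4.27% were called, 1.43% higher and 2.85% lower. No member was called in FR1, where 2.6% were called, 0.609% higher and 1.99% lower. These comparisons share their CONTROL libraries and are not independent of each other.

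Leaving out 1 library at a time kept the TGFB3 change between 1.64 and 2.23, and the gene was called in 19 of 20 such runs. The exception was the run without CONTROL_3, at 1.75 ± 0.51 (edgeR adjusted p = 0.0505). The FR2 call was lost in 5 of 20 runs, without CONTROL_3, CONTROL_4, FR2_1, FR2_3 or FR2_5, at changes of at least 1.87. The FR3 call was lost in 6 of 20, without CONTROL_3, CONTROL_4, FR3_1, FR3_2, FR3_4 or FR3_5. The marker sums went along with TGFB3 in some libraries. FR3_4, the library with the most TGFB3, had the lowest summed epithelium markers (1768 CPM) and the highest summed fibroblast markers (18201 CPM) of all libraries, and CONTROL_1, with the least TGFB3, had the lowest fibroblast sum (1779.9 CPM). Other libraries did not follow. FR1_2 had 12.8 CPM of TGFB3 at a fibroblast sum of 15217 CPM, and FR3_3 had 12.7 CPM at a sum of 4794 CPM. The part of tissue makeup in the TGFB3 level was not tested. With the mean level of the epithelium markers as a covariate the TGFB3 change was 0.73 ± 0.42 (adjusted p = 0.281), and with that of the fibroblast markers, a covariate chosen after seeing the data, it was 0.89 ± 0.41 (adjusted p = 0.178). TGFB3 was called in neither. The fibroblast markers include COL1A1, COL3A1 and DCN, which are also on the lists of pathway genes below. The fibroblast covariate is thus not separate from the pathway. By the RefSeq table of assembly Sscrofa11.1, TGFB3 overlaps IFT43, and the strand setting of the counting is not given. IFT43 averaged 17.5 ± 5.49 CPM in inseminated and 21.8 ± 13.0 CPM in CONTROL sows, a log2 change of -0.32 ± 0.27 that was not called (adjusted p = 0.491).

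TGFB2, the isoform known for roles in heart, eye and skeletal development, stood at 41.9, 72.2, 92.3, 28.2 and 73.1 CPM in FR1, at 79.0, 84.6, 23.6, 54.9 and 66.7 CPM in FR2, at 130.2, 140.3, 48.2, 53.2 and 46.4 CPM in FR3, and at 31.0, 43.3, 32.3, 27.1 and 32.5 CPM in CONTROL. The CONTROL libraries lay close together, 12 of 15 inseminated libraries were above all of them, and FR2_3 was below all of them. The log2 change was 1.04 ± 0.33, a 2.05-fold higher level that passed the threshold narrowly (edgeR adjusted p = 0.0476). With 1 library left out in turn the change stayed between 0.94 and 1.15, but the gene was called in only 7 of 20 runs (adjusted p 0.0246 to 0.101). It was not called without any 1 of the CONTROL libraries other than CONTROL_2, nor without any 1 of FR1_2, FR1_3, FR1_5, FR2_1, FR2_2, FR2_4, FR2_5, FR3_1 and FR3_2. By group it was not called, at 0.89 ± 0.38 in FR1 (adjusted p = 0.214), 0.89 ± 0.38 in FR2 (adjusted p = 0.173) and 1.33 ± 0.38 in FR3 (adjusted p = 0.0551). All 5 FR3 libraries were above every CONTROL library.

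Among the inseminated sows TGFB2 and TGFB3 tended to be high in different libraries. The 3 libraries with the least TGFB2, FR2_3, FR1_4 and FR1_1, had 25.7, 22.5 and 24.2 CPM of TGFB3. The 2 with the most TGFB2, FR3_2 and FR3_1, had 8.04 and 13.4 CPM of TGFB3. Spearman's correlation of TGFB2 with TGFB3 over the 15 libraries was -0.53, given as a description of libraries that differ in tissue makeup. Summed epithelium markers were 2231, 1953 and 1887 CPM in FR2_3, FR1_4 and FR1_1, and 6064 and 6732 CPM in FR3_2 and FR3_1. Other libraries did not follow, with sums of 1768 CPM in FR3_4 and 6167 CPM in FR3_3, where TGFB2 was at 53.2 and 48.2 CPM. The part of tissue makeup in the TGFB2 level was not tested. With the epithelium covariate the TGFB2 change was larger, at 1.66 ± 0.37 (edgeR adjusted p = 0.0125). Without FR1_1, FR1_4, FR2_3 and FR3_4 it was 1.25 (adjusted p = 0.00806). That set holds the 3 inseminated libraries with the least TGFB2, so leaving it out raises the change by construction and lends it no support. With the fibroblast covariate the TGFB2 change was 1.18 ± 0.44 and not called (adjusted p = 0.0969).

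TGFB1, the isoform best known in immune regulation, was not called. It stood at 23.3, 21.4, 25.6, 27.4 and 28.3 CPM in FR1, at 30.2, 36.0, 28.8, 26.7 and 28.3 CPM in FR2, at 17.0, 18.0, 24.0, 43.2 and 25.2 CPM in FR3, and at 14.7, 37.4, 49.1, 56.6 and 20.4 CPM in CONTROL. CONTROL_3 and CONTROL_4 were above, and CONTROL_1 below, every inseminated library. TGFB1 had a log2 change of -0.41 ± 0.24 (edgeR adjusted p = 0.295). The balance of the isoforms shifted within libraries, described here with no test since it restates the levels above. The log2 ratio of TGFB3 to TGFB1 had a median of -0.60 in inseminated and -2.58 in CONTROL libraries, and 14 of 15 inseminated libraries lay above all CONTROL libraries. The log2 ratio of TGFB2 to TGFB1 had a median of 1.23 in inseminated and 0.21 in CONTROL libraries, with 8 of 15 above all CONTROL libraries.

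**Figure D2:**
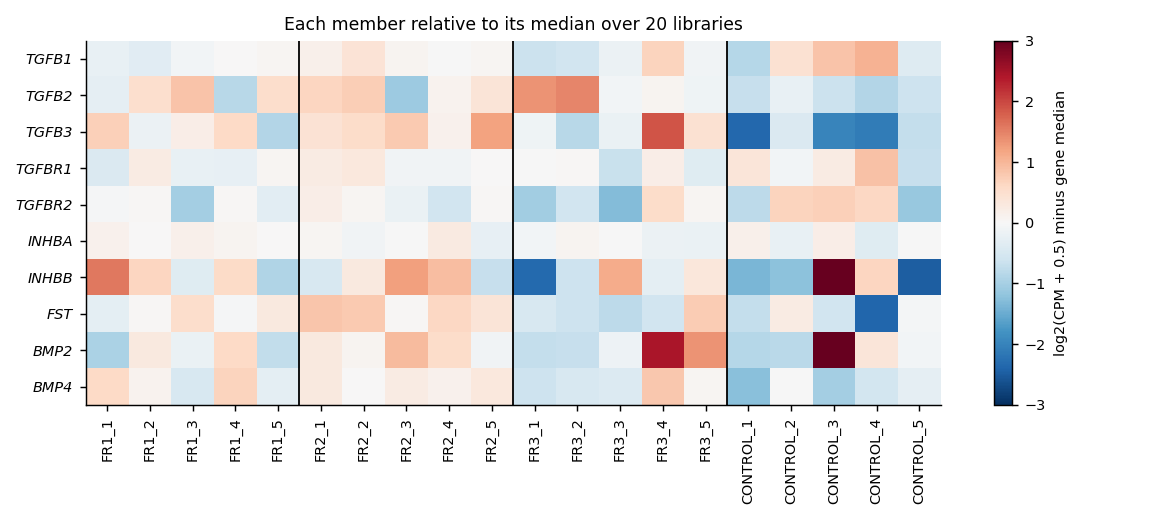
Level of each member in each library, as log2(CPM + 0.5) minus the gene's median over the 20 libraries (red above, blue below; colours end at 3 either way), with black lines between FR1, FR2, FR3 and CONTROL. TGFB3 was low in CONTROL libraries, TGFB2 was lowest among inseminated libraries in FR2_3, FR1_4 and FR1_1, and INHBB and BMP2 were high in CONTROL_3.

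The receptors showed no called difference. TGFBR2 encodes the type II receptor that binds TGF-beta, and TGFBR1 the type I kinase that it activates. TGFBR2 stood at 85.8, 89.4, 43.1, 89.4 and 70.7 CPM in FR1, at 101, 91.8, 75.8, 58.5 and 89.5 CPM in FR2, at 42.3, 58.4, 35.3, 128 and 91.7 CPM in FR3, and at 50.8, 139, 144, 136 and 39.6 CPM in CONTROL. The CONTROL libraries fell into a high set of 3, above every inseminated library, and a low set of 2. The log2 change of TGFBR2 was -0.41 ± 0.30 (edgeR adjusted p = 0.415), 0.01 without CONTROL_2 and CONTROL_3, and 0.79 without CONTROL_2, CONTROL_3 and CONTROL_4. Smooth muscle markers, of which 0 of 10 were called, had summed levels of 4561 to 33117 CPM (median 16288) in inseminated and 1331 to 36996 CPM (median 21511) in CONTROL libraries. They summed to 30838 CPM in FR3_4, where TGFBR2 was highest among inseminated libraries, to 4561 and 8504 CPM in FR1_3 and FR3_3, where it was among the lowest, and to 36996, 32172 and 21511 CPM in CONTROL_2, CONTROL_3 and CONTROL_4. Other libraries did not follow: the sum was highest among inseminated libraries in FR1_1, at 33117 CPM, where TGFBR2 was at 85.8 CPM, and it was 16635 CPM in CONTROL_5, above the inseminated median, where TGFBR2 was lowest among CONTROL libraries, at 39.6 CPM. The part of tissue makeup in the level of TGFBR2 was not tested. TGFBR2 was called lower with the fibroblast covariate, at -1.34 ± 0.36 (adjusted p = 0.0327), a call that no other setting gave.

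TGFBR1 averaged 30.4 ± 6.01 CPM in FR1, 34.7 ± 4.76 CPM in FR2, 29.8 ± 6.86 CPM in FR3 and 38.3 ± 14.7 CPM in CONTROL (SD, n = 5 each). Its highest and its lowest library, at 60.0 and 20.1 CPM, were both CONTROL libraries. Its log2 change was -0.28 ± 0.19 (edgeR adjusted p = 0.367). The log2 ratio of TGFBR1 to TGFBR2 had nearly the same median in inseminated (-1.20) and CONTROL (-1.18) libraries.

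INHBA encodes the beta A subunit of activin A and of inhibin A, and its row was the steadiest of the members. It averaged 24.5 ± 1.19 CPM in FR1, 23.2 ± 3.3 CPM in FR2, 22.0 ± 1.89 CPM in FR3 and 22.6 ± 3.78 CPM in CONTROL, with a log2 change of 0.04 ± 0.11 (edgeR adjusted p = 0.877). The identity of this row is uncertain. The deposited table holds 2 rows named INHBA that share a gene identifier, the RefSeq table has 1 entry for it, between NAA38 and LOC102158553 and not typed as protein coding, and the sources used here do not say which row is which locus. The other row was low and uneven, at 0.963 ± 0.6 CPM in inseminated and 1.73 ± 1.25 CPM in CONTROL sows, and had a log2 change of -0.95 ± 0.42 that was not called (adjusted p = 0.16).

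INHBB, the beta B subunit of activin B and inhibin B, was the most variable member and was not called. It stood at 24.6, 12.7, 6.05, 11.9 and 4.02 CPM in FR1, at 5.49, 9.84, 19.1, 15.4 and 4.72 CPM in FR2, at 1.18, 4.94, 17.7, 6.31 and 10.1 CPM in FR3, and at 2.77, 3.07, 96.1, 12.7 and 1.02 CPM in CONTROL. CONTROL_3 was above every inseminated library, and 3 of the other CONTROL libraries were at or below 3.07 CPM, so that the median was 9.84 CPM in inseminated and 3.07 CPM in CONTROL libraries while the mean was 10.3 CPM in inseminated and 23.1 CPM in CONTROL libraries. INHBB had a log2 change of -1.19 ± 0.71 (edgeR adjusted p = 0.306), and 1.04 ± 0.66 without CONTROL_3 (adjusted p = 0.405), so 1 library set its sign. CONTROL_3 also had the highest summed immediate early and heat shock genes, at 6831 CPM, and the highest summed leukocyte markers, at 231 CPM. Inseminated libraries spanned 916 to 1834 CPM (median 1292) and CONTROL libraries 1124 to 6831 CPM (median 1849) for the 17 immediate early and heat shock genes. Of these 9 were called lower (52.9%, beside 8.2% of all genes tested). For the 13 leukocyte markers the ranges were 35.6 to 109 CPM (median 72.7) in inseminated and 44.5 to 231 CPM (median 61.3) in CONTROL libraries. Of the 12 leukocyte markers tested, 2 were called lower (16.7%). The part of either in the INHBB level was not tested.

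FST encodes follistatin, which binds activins and blocks them. It stood at 6.19, 7.96, 11.3, 7.49 and 9.51 CPM in FR1, at 14.2, 13.7, 7.91, 12.2 and 10.3 CPM in FR2, at 5.4, 4.85, 4.27, 4.97 and 13.4 CPM in FR3, and at 4.48, 9.22, 4.98, 1.07 and 7.41 CPM in CONTROL. The groups overlapped, with 7 of 15 inseminated libraries above all CONTROL libraries, 4 of them in FR2. FST had a log2 change of 0.67 ± 0.35 and was not called (edgeR adjusted p = 0.237). FST averaged 11.6 ± 2.57 CPM in FR2 and 6.58 ± 3.85 CPM in FR3, the pair of inseminated groups furthest apart for this gene, a difference that was not called either. The log2 ratio of the INHBA row to FST had a median of 1.54 in inseminated and 2.43 in CONTROL libraries, with 4 of 15 inseminated libraries below all CONTROL libraries, and that of INHBB to FST had a median of 0.03 in inseminated and -0.70 in CONTROL libraries.

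BMP4, a BMP ligand of stromal and mesenchymal tissues, was not called but came closest after TGFB2. It stood at 22.9, 16.2, 10.6, 24.1 and 12.1 CPM in FR1, at 18.4, 15.2, 17.8, 16.4 and 18.9 CPM in FR2, at 9.68, 10.7, 11.2, 26.9 and 15.8 CPM in FR3, and at 5.99, 14.9, 7.18, 10.1 and 12.5 CPM in CONTROL. All 5 FR2 libraries lay above every CONTROL library, and 10 of 15 inseminated libraries did in all. The log2 change was 0.69 ± 0.26 (edgeR adjusted p = 0.0937), between 0.55 and 0.88 with 1 library left out, and called only without CONTROL_2 (adjusted p = 0.0492). With either the epithelium or the fibroblast covariate it was -0.08. FR3_4, with the highest fibroblast sum, had the most BMP4, and CONTROL_1, with the lowest, had the least. Not all libraries followed. FR1_2 had 16.2 CPM of BMP4 at a fibroblast sum of 15217 CPM, and FR1_4 had 24.1 CPM at a sum of 13248 CPM. Whether tissue makeup plays a part in the BMP4 level was not tested.

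BMP2, which is required for stromal decidualisation in the mouse uterus, stood at 0.743, 2.42, 1.59, 3.12 and 0.929 CPM in FR1, at 2.45, 2.02, 4.15, 2.99 and 1.73 CPM in FR2, at 0.957, 0.98, 1.67, 12.5 and 5.61 CPM in FR3, and at 0.817, 0.869, 20.1, 2.58 and 1.78 CPM in CONTROL. CONTROL_3 and FR3_4 stood far above the rest, and the other 18 libraries overlapped. BMP2 had a log2 change of -0.94 ± 0.65 (edgeR adjusted p = 0.388), and of 0.86 ± 0.61 without CONTROL_3, so that here too 1 library set the sign. The median was 2.02 CPM in inseminated and 1.78 CPM in CONTROL libraries. The log2 ratio of BMP2 to BMP4 had a median of -2.91 in inseminated and -2.81 in CONTROL libraries.

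**Figure D3:**
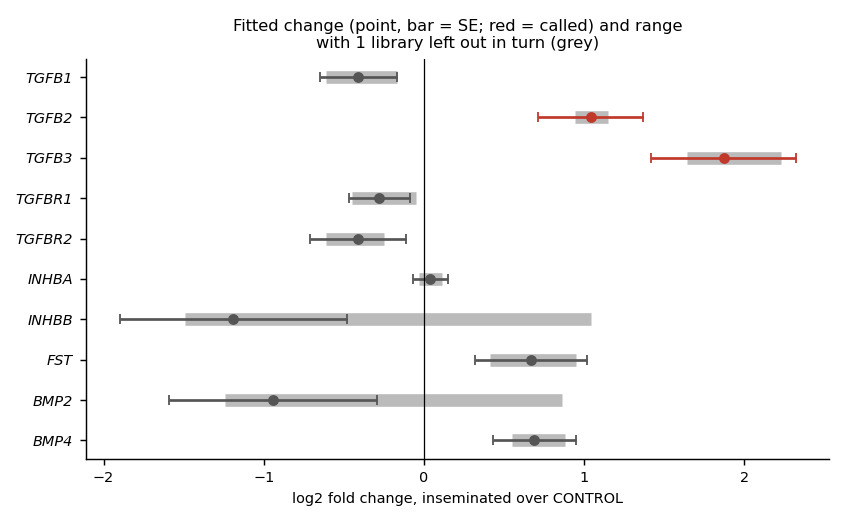
Log2 fold change of each member, inseminated over CONTROL sows, with its standard error (TGFB2 and TGFB3, the 2 called, in red) and the range of the change when each of the 20 libraries was left out in turn (grey band). The bands of INHBB and BMP2 crossed 0 widely, between -1.49 and 1.04 and between -1.24 and 0.86, while those of TGFB2 and TGFB3 stayed above 0.

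The inseminated groups were also compared with each other, which asks whether the fractions in the dose mattered. No member was called between any of them, nor did any reach an unadjusted p below 0.05 in edgeR's test. The INHBA row that was not used was not called either. Its change was -1.36 ± 0.56 between FR3 and FR1 (edgeR unadjusted p = 0.0245, adjusted p = 0.593). Its unadjusted p was 0.321 between FR2 and FR1 and 0.162 between FR3 and FR2. Between FR2 and FR1, where 0 of all genes tested were called, the lowest unadjusted p of a member was 0.284, for FST. Between FR3 and FR2, where 0.00564% of all genes tested were called, it was 0.0614, also for FST. Between FR3 and FR1, where 0 of all genes tested were called, it was 0.141, for BMP2, which averaged 4.33 ± 4.93 CPM in FR3 and 1.76 ± 1 CPM in FR1, with FR3_4 at 12.5 CPM. Over any difference among the 4 groups, where 4.07% of all genes tested were called, TGFB3 had an adjusted p of 0.0738 and TGFB2 of 0.173, and no member was called.

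The remaining genes of the pathway were taken from 8 lists by role. Of 110 names listed, some of them on more than 1 list, 106 were found and 90 were tested. In inseminated against CONTROL sows 7 were called higher (7.78%) and 8 lower (8.89%), with a median log2 change of 0.01, beside 2.87% higher, 8.2% lower and a median of -0.05 over all genes tested. Against CONTROL, 1 was called higher (1.11%) and 4 lower (4.44%) in FR1, beside 0.609% and 1.99% of all genes tested. In FR2 5 were called higher (5.56%) and 4 lower (4.44%), beside 1.57% and 3.98%. In FR3 4 were called higher (4.44%) and 2 lower (2.22%), beside 1.43% and 2.85%. Between inseminated groups 0 were called, where at most 0.00564% of all genes tested were.

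Of 12 tested ligands of the family outside the members, 3 were called higher (25.0%) and 0 lower, with a median log2 change of 0.59. Of all genes tested 2.87% were called higher and 8.2% lower. GDF7, a ligand of the BMP group also known as BMP12, averaged 5.18 ± 2.42 CPM in inseminated and 0.803 ± 0.626 CPM in CONTROL sows (SD, n = 15 and 5). It was above all CONTROL libraries in 14 of 15 inseminated libraries, FR1_4 at 1.76 CPM being the exception, with a log2 change of 2.67 ± 0.49 (edgeR adjusted p = 0.00171). GDF9, best known as an oocyte factor, averaged 9.36 ± 1.1 CPM in inseminated and 6.39 ± 0.828 CPM in CONTROL sows, a log2 change of 0.55 ± 0.14 (adjusted p = 0.0156). GDF11, a close relative of myostatin, averaged 4.27 ± 1.26 CPM in inseminated and 2.15 ± 0.947 CPM in CONTROL sows, a log2 change of 0.99 ± 0.31 (adjusted p = 0.0476) that was called in 4 of 20 runs with 1 library left out. GDF7 and GDF9 were called in all 20 runs. GDF7 was also called with either covariate, while GDF9 was not, at 0.55 with the epithelium covariate (adjusted p = 0.0722) and 0.62 with the fibroblast covariate (adjusted p = 0.0537), and nor was GDF11, at 0.83 and 0.68.

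Of 15 tested receptors and co-receptors outside the members, 1 was called higher (6.67%) and 3 lower (20.0%), with a median of 0.18. Beside this, 2.87% of all genes tested were called higher and 8.2% lower. BMPR1B, a type I BMP receptor, averaged 23.5 ± 5.7 CPM in inseminated and 40.5 ± 12.2 CPM in CONTROL sows, a log2 change of -0.79 ± 0.19 (edgeR adjusted p = 0.0127), and 4 of 5 CONTROL libraries were above every inseminated library. With either the epithelium or the fibroblast covariate it was -0.28 and not called. ACVR2B, a type II activin receptor, averaged 16.4 ± 3.59 CPM in inseminated and 10.5 ± 2.92 CPM in CONTROL sows, a log2 change of 0.64 ± 0.19 (adjusted p = 0.0386) that was called in 10 of 20 runs with 1 library left out. ACVR1B, the type I activin receptor also called ALK4, and ACVR1, a type I receptor for BMPs, were called lower, at -1.10 ± 0.33 and -0.60 ± 0.19 (adjusted p = 0.0388 and 0.0482). CONTROL_3 set much of both changes, with ACVR1B at 104 CPM and ACVR1 at 98.9 CPM, and without that library they were -0.40 and -0.20 and not called. With 1 library left out in turn ACVR1B was called in 10 of 20 runs and ACVR1 in 4 of 20, and both calls were also lost without CONTROL_2. ACVR2B, ACVR1B and ACVR1 were called under neither covariate. None of the 8 SMAD genes was called, with a median of -0.00; SMAD1, which carries the BMP signal, had the smallest p, at 0.44 ± 0.15 (adjusted p = 0.075).

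**Figure D4:**
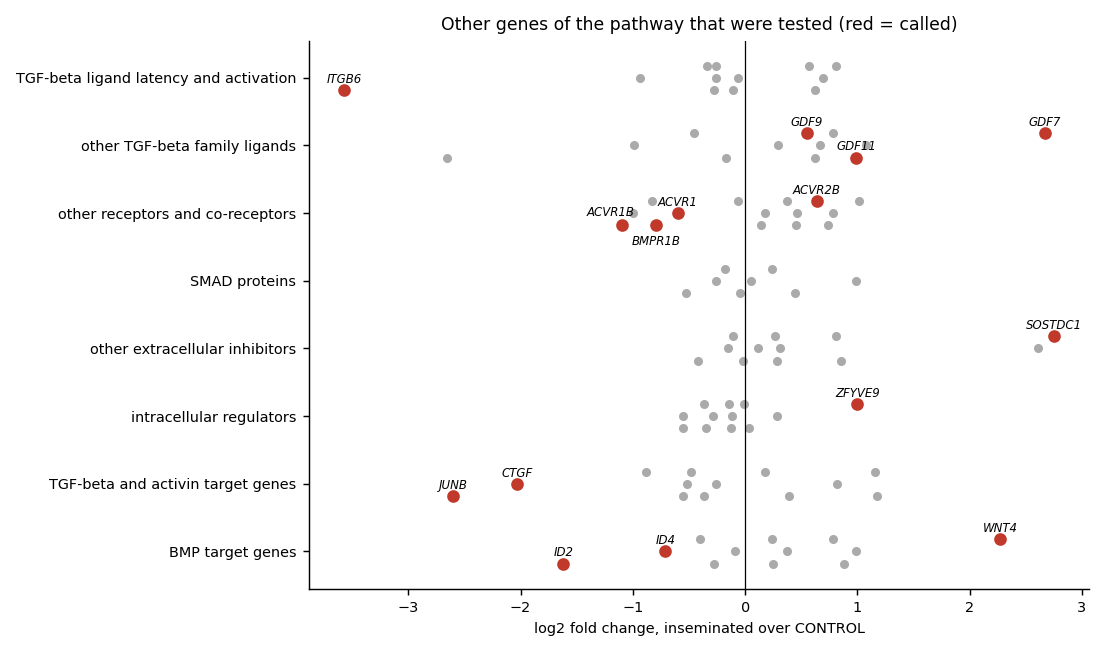
Log2 fold change, inseminated over CONTROL sows, of the 90 other pathway genes tested, in rows by role, with called genes in red and named. The 7 genes called higher and the 8 called lower were spread over 7 of the 8 lists, with none among the SMAD genes.

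Among regulators, 1 of 12 genes of ligand latency and activation was called, lower (8.33%, beside 8.2% of all genes tested). The list median was -0.19. The gene called was ITGB6, the beta subunit of the epithelial integrin that activates latent TGF-beta. It was at 0.696, 1.14, 0.436, 0.439 and 0.683 CPM in FR1, at 0.543, 0.696, 0.459, 1.09 and 1.67 CPM in FR2, at 0.661, 1.69, 0.372, 0 and 1.15 CPM in FR3, and at 1.15, 14.4, 17.7, 12.5 and 0.486 CPM in CONTROL. CONTROL_2, CONTROL_3 and CONTROL_4 were high and the other 2 CONTROL libraries lay within the inseminated range. The log2 change was -3.57 ± 0.64 (edgeR adjusted p = 0.00153), and -1.34 ± 1.24 with the epithelium covariate, where it was not called (adjusted p = 0.514). With the fibroblast covariate ITGB6 was still called, at -3.92 ± 1.03 (adjusted p = 0.0301). Without CONTROL_2, CONTROL_3 and CONTROL_4 its change was -0.06 and not called (adjusted p = 0.984).

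Of 12 other extracellular inhibitors 1 was called, higher (8.33%, beside 2.87% of all genes tested), with a median of 0.27. SOSTDC1, a secreted antagonist of BMP and WNT signals, averaged 11.3 ± 8.89 CPM in inseminated and 1.64 ± 1.23 CPM in CONTROL sows, a log2 change of 2.75 ± 0.71 (edgeR adjusted p = 0.0168). The gene was highest in FR3_1 and FR1_3, at 29.7 and 27.4 CPM, and 5 inseminated libraries lay within the CONTROL range. Of 12 intracellular regulators 1 was called, higher (8.33%, beside 2.87% of all genes tested), with a median of -0.13. ZFYVE9, also called SARA, which presents SMAD2 and SMAD3 to the receptor, averaged 52.3 ± 16.6 CPM in inseminated and 25.9 ± 7.96 CPM in CONTROL sows, a log2 change of 1.00 ± 0.23 (adjusted p = 0.00755). SOSTDC1 and ZFYVE9 were called in all 20 runs with 1 library left out and under both covariates. SOSTDC1 was not called with limma-voom (adjusted p = 0.0853) or the exact rank-sum test (adjusted p = 0.0737). Nor was SOSTDC1 called without CONTROL_2 and CONTROL_3 (edgeR adjusted p = 0.0976), while ZFYVE9 was called in each of these. Neither was called with limma-voom and a spread per group (adjusted p = 0.432 and 0.116).

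Of 13 TGF-beta and activin target genes 2 were called, both lower (15.4%, beside 8.2% of all genes tested), with a median of -0.37. CTGF, a matricellular protein, ranged over 94.6 to 529 CPM (median 185) in inseminated libraries, against 129, 1855, 1745, 357 and 355 CPM in CONTROL libraries 1 to 5. CONTROL_2 and CONTROL_3 were the high ones, and the rest overlapped the inseminated range. Its log2 change was -2.03 ± 0.39 (edgeR adjusted p = 0.0023), and -0.38 without CONTROL_2 and CONTROL_3 (adjusted p = 0.501). JUNB, a subunit of the transcription factor AP-1, averaged 28.2 ± 12.7 CPM in inseminated sows and had a median of 69.5 CPM in CONTROL sows, with 562 CPM in CONTROL_3 and 159 CPM in CONTROL_2. Its log2 change was -2.60 ± 0.47 (adjusted p = 0.00149), -1.34 without CONTROL_3, still called (adjusted p = 0.0489), and -0.61 without both of these libraries (adjusted p = 0.372). JUNB is also in the immediate early list, whose summed level was highest in the same libraries, at 6831 CPM in CONTROL_3 and 3876 CPM in CONTROL_2. The part of that list in the change of either gene was not tested. With the epithelium covariate neither was called (adjusted p = 0.151 for CTGF and 0.0521 for JUNB), and with the fibroblast covariate CTGF was called and JUNB was not.

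Of 12 BMP target genes 1 was called higher (8.33%) and 2 lower (16.7%), with a median of 0.24. The shares over all genes tested were 2.87% higher and 8.2% lower. ID2 encodes an inhibitor of helix-loop-helix transcription factors, a direct BMP target in many cells. It averaged 53.8 ± 22.4 CPM in inseminated and 159 ± 113 CPM in CONTROL sows, a log2 change of -1.62 ± 0.28 (edgeR adjusted p = 0.00111). CONTROL_2, CONTROL_3 and CONTROL_4 were high, at 161, 346 and 149 CPM. CONTROL_1 and CONTROL_5, at 66.6 and 73.8 CPM, lay within the inseminated range. The ID2 change was -0.92 without CONTROL_2 and CONTROL_3, still called (adjusted p = 0.0412), and -0.43 without CONTROL_4 as well, not called (adjusted p = 0.415). With the epithelium covariate it was -0.68 and not called (adjusted p = 0.184), nor was it called with the fibroblast covariate, at -1.36 (adjusted p = 0.0548). ID4, of the same family, was called narrowly, at -0.71 ± 0.22 (adjusted p = 0.0457). With 1 library left out it was called in 4 of 20 runs, at changes of -0.90 to -0.47 (adjusted p 0.0184 to 0.245), and with either covariate it was called, at -1.06 and -1.15. ID1 and ID3 were not called, at -0.28 ± 0.37 (adjusted p = 0.688) and -0.40 ± 0.32 (adjusted p = 0.463). WNT4, which acts downstream of BMP2 in the mouse decidua, averaged 1.53 ± 0.72 CPM in inseminated and 0.305 ± 0.234 CPM in CONTROL sows, a log2 change of 2.27 ± 0.55 (adjusted p = 0.0118), with 13 of 15 inseminated libraries above all CONTROL libraries. WNT4 was called with the epithelium covariate and not with the fibroblast covariate (adjusted p = 0.0661).

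**Figure D5:**
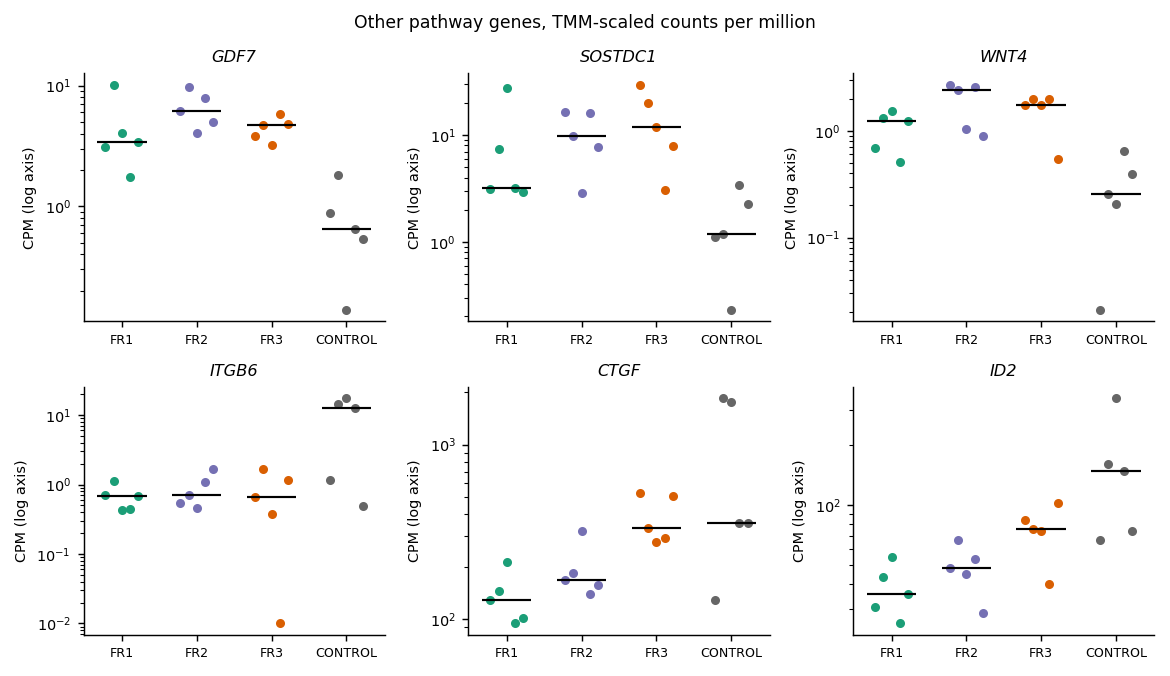
TMM-scaled CPM on log axes of 6 called pathway genes in each library (points; the line is the group median; a level of 0 is drawn at 0.01) of the FR1, FR2, FR3 and CONTROL sows. GDF7, SOSTDC1 and WNT4 were higher in the inseminated groups, while the lower calls of ITGB6 and CTGF rested on 3 and on 2 high CONTROL libraries.

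The genes whose levels ran most like each member over the 15 inseminated libraries were found among 14696 genes with a mean of at least 1 CPM, by Spearman's correlation, which is given as a description since all libraries share differences in tissue makeup and depth. For TGFB1 they were GPM6A (0.86) and ADCY4 (0.85), for TGFB2 DAAM1 and THNSL1 (0.97 each), and for TGFB3 RIMS1 (0.92) and JCAD (0.91). For TGFBR1 they were SCN2B (0.90) and RBM27 (0.88), and for TGFBR2 CD44 (0.97) and NR2F2 (0.94). For INHBA they were DYRK1B and ZBTB9 (0.81 each), for INHBB ST3GAL1 (0.91) and ARSE (0.90), and for FST EXOC3L2 (0.86) and HES2 (0.84). For BMP2 they were MYCT1 (0.85) and FAM81B (0.84), and for BMP4 MEAF6 (0.98) and FGD5 (0.96). Between members the correlation was highest for TGFB3 with BMP4 (0.76) and lowest for TGFB2 with INHBB (-0.74).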

How the data were processed

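Poly-A RNA was sequenced in pairs, per the labels' protocols, which leave the strand marking open. The submitters' processing notes name CASAVA, STAR 2.7.9a and Salmon 1.10.1. Genome build, annotation release and strand setting are not given in the sources used here. Values that the authors deposited are unscaled expected counts, Salmon's estimates for each gene, and 87.2% were whole. They were rounded. Of 30369 rows, 24 name no gene and were left out; they held 0.0036% to 0.0133% of each library's counts. Symbols are those of the table, and 30328 gene identifiers carried the same symbol in the RefSeq table of Sscrofa11.1, used for names and neighbours only. Salmon shares reads between similar or overlapping transcripts, so values of overlapping genes (TGFB1, TGFB3, ITGB6, ACVR1, SOSTDC1, ZFYVE9) are less certain. Columns name a group and a number, not a sow, so libraries are named that way.

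Groups were compared with the 2-sided quasi-likelihood test of edgeR 4.0.16 in R 4.3.3, with TMM factors and filterByExpr. All 20 libraries entered 1 fit with 16 residual degrees of freedom. P-values were adjusted by Benjamini-Hochberg over 17745 genes. Standard errors are the log2 change over the square root of the F statistic. P-values set a difference between groups against the spread between sows, of which all groups share 1 estimate. Alternatives used DESeq2 1.42.0, limma 3.58.1, an exact rank-sum test, other filters, factors, covariates and libraries left out. The code was tested on simulated data. The members and lists were chosen with earlier results of these data known. Named are all members, up to 4 called genes of each list by smallest p (or its smallest-p gene where none was called), and the 2 genes most like each member; ID1 and ID3 were added after their values were seen, as relatives of called genes.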

Additional observations from a re-analysis of the deposited data

Results flagged for a closer look

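In each group of 5, the highest and lowest library of each member was set against the nearest of the others by Dixon's criterion, which by chance flags about 1 in 20 groups. Of 40 sets looked at, 4 held such a library. TGFB3 was at 55.3 CPM in FR3_4, where the other FR3 libraries had 8.04 to 20.2 CPM. INHBB was at 96.1 CPM and BMP2 at 20.1 CPM in CONTROL_3, where the other CONTROL libraries had 1.02 to 12.7 CPM of INHBB and 0.817 to 2.58 CPM of BMP2. FST was at 13.4 CPM in FR3_5, where the other FR3 libraries had 4.27 to 5.4 CPM.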

How the results depend on the processing

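TGFB2 and TGFB3 kept their direction under all 35 settings tried, including the covariates and each library left out, while their calls did not hold under all. Without a single library in turn, 0 to 3 members were called in inseminated against CONTROL sows, 0 to 1 in FR1, 0 to 1 in FR2, 0 to 2 in FR3 and 0 to 1 for any difference; pathway genes called were 10 to 24, 1 to 11, 3 to 14, 0 to 15 and 2 to 10 in the same comparisons. The count of 0 members was without CONTROL_3 and of 3 without CONTROL_2. The share of all genes tested that was called moved as well, over 5.5% (without CONTROL_3) to 15.2% (without CONTROL_5), 0.551% to 7.63%, 1.72% to 10.5%, 0.322% to 10.4% and 1.35% to 8.48%, so these counts are to be read against it. INHBA ranged over -0.03 to 0.11, INHBB over -1.49 to 1.04 and BMP2 over -1.24 to 0.86.

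The share of all genes called differed between settings and stands beside each count below; with the settings of the report it was 11.1%, 2.6%, 5.55%, 4.27% and 4.07%, in the order inseminated, FR1, FR2 and FR3 against CONTROL and any difference. Pathway genes called, in the order inseminated, FR1, FR2 and FR3 against CONTROL and any difference, were 23, 13, 15, 13 and 12 with DESeq2, which called 1 member in FR1, 2 in FR3 and 1 for any difference (all genes 16.3%, 8.17%, 12.0%, 10.6% and 11.9%). At an adjusted p below 0.1 they were 25, 9, 15, 12 and 11, with 1, 2 and 1 members called in FR1, FR3 and any difference (all genes 16.8%, 6.49%, 10.8%, 9.04% and 7.35%). With limma-voom 1 member was called in inseminated sows and 0 in FR3, and 2, 5, 2 and 2 pathway genes in FR1, FR2, FR3 and any difference (all genes 7.37% in inseminated sows, then 1.04%, 3.97%, 1.66% and 1.15%). With limma-voom and a spread per group 0 members were called in inseminated, FR2 and FR3 sows, and 0, 0, 3, 0 and 0 pathway genes, where few genes were called at all (1.45%, 0.124%, 2.02%, 0% and 0.124%); both limma-voom fits put INHBB at 0.34. With only the groups compared in the fit, 0 members in FR2 and FR3 and 0 pathway genes in FR1, FR2 and FR3 were called, and of all genes tested 0, 1 and 0 were. The epithelium covariate left 1 member and 8 pathway genes called in inseminated sows, 11 in FR3 and 3 for any difference (all genes 8.46%, 9.12% and 1.62%), with BMP4 at -0.08. The fibroblast covariate, chosen after seeing the data, gave 1, 0 and 2 members in inseminated, FR2 and FR3 sows and 1, 3, 11 and 1 pathway genes in FR1, FR2, FR3 and any difference (all genes 7.9% in inseminated sows, then 0.828%, 1.65%, 8.23% and 0.304%), with INHBB at 0.08 and BMP4 at -0.08. Without CONTROL_2 and CONTROL_3, 1 member was called in inseminated sows and 0 in FR3, and 9, 3, 3 and 1 pathway genes in inseminated, FR1 and FR2 sows and any difference (all genes 6.39%, 0.949%, 3.75% and 1.45%, and 2.75% in FR3); TGFBR2 was at 0.01, INHBB at 0.87, BMP2 at 0.66 and ACVR1B at 0.07. Without CONTROL_4 as well, 0 members in inseminated, FR2 and FR3 sows and 1, 1, 1, 0 and 0 pathway genes were called (all genes 2.78%, 1.1%, 2.23%, 0.0372% and 0.388%); TGFB1 was at 0.63, TGFBR1 at 0.04, TGFBR2 at 0.79, INHBA at -0.05, INHBB at 2.45, BMP2 at 1.1, ACVR1 at 0.01 and ACVR1B at 0.25. Without FR1_1, FR1_4, FR2_3 and FR3_4, 0 pathway genes were called in FR1 (all genes 0.121%). With no filter on low counts 1 member was called in inseminated sows (all genes 7.76%), and with a log2 change of at least 1 required, 9 pathway genes (all genes 6.18%). The exact rank-sum test called 0 members (TGFB2 adjusted p = 0.155, TGFB3 adjusted p = 0.0601) and 5 pathway genes (all genes 1.88%), with median differences of 0.74 for INHBB and 0.12 for BMP2. Fewer samples enter the fits with libraries left out; otherwise the cause of these changes was not tested. No paired analysis was possible because the groups share no sow numbers and the table's columns are not tied to sows.

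The main limits are 5 CONTROL sows that differ widely among themselves, mixed tissue, unknown embryo status and an INHBA row of uncertain identity. WNT4 and GDF7 were low in CONTROL libraries, where their values are least precise.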
